A study of Mus musculus with 3 samples.

Results

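Nucleoporins, which build the nuclear pore, and the receptors that carry cargo through it were examined in mouse neural stem cells (NSCs) depleted of the histone demethylase PHF2. Members were the table rows whose gene symbol begins with Nup, Ipo, Xpo or Kpna followed by a number (Xpot included), together with Kpnb1. The rule found 41 of the 16977 genes in the table, 22 nucleoporins and 19 transport receptors. Cells infected with a lentivirus carrying a hairpin against PHF2 (shPHF2) gave 2 libraries, described as biological replicates. The table's column header for replicate 2 follows a different naming pattern, and the sources used here do not say whether that library belongs to a separate batch. Cells infected with a lentivirus carrying a control hairpin (shControl) gave 1 library. Both groups were NSCs of C57BL/6J mice at stage E12.5, grown as a layer on coated dishes with EGF and FGF, so lentiviral infection and growth factors were common to all libraries. Hairpins lower a transcript in a mixed population and do not delete the gene. The sources used here do not give the hairpin sequences, their number or any selection of infected cells.

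Values are normalised reads, meaning reads divided by a size factor that corrects for library depth. Reads in genes numbered 37171026 and 26302177 in shPHF2 replicates 1 and 2, and 32898139 in shControl. Phf2 itself had 985 and 714 normalised reads in shPHF2 cells, against 2593 in shControl cells, and fell (log2 fold change −1.63 ± 0.24 SE, adjusted p = 0.0085). All 10 neural stem markers on a list drawn up for this cell type were in the table. Their summed level was 345110 and 388761 normalised reads in shPHF2 cells and 331508 in shControl cells. Sox2 rose and was the 1 marker called (adjusted p = 0.048 by limma, 0.054 by edgeR). The others differed in direction. Vim had 116785 and 132042 in shPHF2 cells and 77235 in shControl cells, and Slc1a3 and Prom1 also lay above shControl in both libraries. Nes, with 101381 and 98053 against 118161, lay below shControl in both libraries, as did Pax6, Hes1 and Hes5. Microglial markers summed to 30.01 and 13.3 in shPHF2 cells and 10.96 in shControl cells, and fibroblast markers to 14.2 and 14.5 in shPHF2 cells and 6.98 in shControl cells. Of the 4 astrocyte markers S100b rose, with 1094 and 849.98 normalised reads in shPHF2 cells and 331 in shControl cells (log2 fold change 1.54, adjusted p = 0.011). The summed astrocyte level was 1263 and 1917 in shPHF2 cells and 478 in shControl cells, above shControl in both libraries, and Aqp4 was at 0 in shControl cells. S100b made up most of that sum in replicate 1. Aldh1l1, the largest part in replicate 2, had 152 and 1009 in shPHF2 cells and 146 in shControl cells and was not called. None of the 6 neuronal markers in the table was called, and they differed in direction. Map2, which makes up most of their sum, had 37935 and 38518 in shPHF2 cells and 60020.2 in shControl cells (adjusted p = 0.12), whereas Tubb3 had 198 and 346 in shPHF2 cells and 104 in shControl cells (adjusted p = 0.070). Oligodendrocyte lineage markers summed to 62823 and 82335 in shPHF2 cells and 67499 in shControl cells, and endothelial markers to 334 and 176 in shPHF2 cells and 290.1 in shControl cells, with 0 called in either list. In bulk RNA, fewer cells of a type and less RNA per cell cannot be told apart.

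The nuclear pore is a ring of many proteins set in the nuclear envelope. Y-shaped complexes form its outer rings, an inner ring anchors the channel, and nucleoporins rich in phenylalanine-glycine repeats fill it. Importins bind cargo in the cytoplasm and release it when the GTPase Ran, in its GTP form, binds them in the nucleus, whereas exportins take up cargo together with RanGTP. Importin alpha proteins are adaptors that recognise classical nuclear localisation signals and hand the cargo to importin beta, encoded by Kpnb1. In dividing cells the pore is taken apart at mitosis and rebuilt afterwards, and in mouse neural progenitors loss of single nucleoporins such as Nup133 disturbs neuronal differentiation.

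Promoter windows of 31 of the 41 members were matched by symbol in the RefSeq promoter table for GRCm38.p6, and 8 short motifs were searched on both strands in the 300 bases from 250 before to 50 after the start. The windows of 4 members called lower are given as examples for GCGCATGC and TTTGAA. Other members with these letters are not shown, among them Ipo4, which was called lower, and Nup62 and Ipo7, which were not. Each line gives the 250 bases before the start, read 5′ to 3′ on the gene's own strand, with searched motifs (either strand) in capitals. Nup107 (chr10:117792706-117792955, minus strand), Nup50 (chr15:84923178-84923427, plus strand) and Xpo5 (chr17:46202561-46202810, plus strand) are the members called lower whose windows hold GCGCATGC, the core of the site of the factor NRF1. Kpna2 (chr11:106999526-106999775, minus strand) holds TTTGAA, the letters of the element known from cell cycle promoters as CHR, 35 bases before its start. In the same window CCAAT, the letters bound by NF-Y, begins 25 bases before it.
Nup107: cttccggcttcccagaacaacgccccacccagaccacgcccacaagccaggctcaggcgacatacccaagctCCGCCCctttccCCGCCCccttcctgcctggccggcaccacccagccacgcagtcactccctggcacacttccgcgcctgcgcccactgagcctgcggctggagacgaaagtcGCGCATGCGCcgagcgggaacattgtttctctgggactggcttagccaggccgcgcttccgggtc
Nup50: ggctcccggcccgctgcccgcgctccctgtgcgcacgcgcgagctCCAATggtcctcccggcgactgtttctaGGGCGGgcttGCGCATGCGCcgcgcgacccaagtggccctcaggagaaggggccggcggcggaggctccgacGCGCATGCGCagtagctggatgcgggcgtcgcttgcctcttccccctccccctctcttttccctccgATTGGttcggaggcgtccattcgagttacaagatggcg
Xpo5: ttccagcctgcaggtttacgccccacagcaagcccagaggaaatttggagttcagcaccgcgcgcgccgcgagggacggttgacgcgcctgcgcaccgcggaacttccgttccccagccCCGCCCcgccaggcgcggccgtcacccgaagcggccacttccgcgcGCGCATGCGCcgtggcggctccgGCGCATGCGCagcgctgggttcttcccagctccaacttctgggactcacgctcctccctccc
Kpna2: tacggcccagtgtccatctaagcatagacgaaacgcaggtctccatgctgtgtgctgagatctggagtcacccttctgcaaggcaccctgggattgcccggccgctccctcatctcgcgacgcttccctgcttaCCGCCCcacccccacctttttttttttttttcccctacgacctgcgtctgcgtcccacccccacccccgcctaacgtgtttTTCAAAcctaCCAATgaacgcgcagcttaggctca

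Shares are of genes, a gene counting once where any of its windows held the letters; 5 members had several windows. The letters GCGCATGC occurred in 4 of 31 members (12.9%), Nup107, Nup50, Xpo5 and Nup62, against 5.91% of the 10296 tested genes with a window and 3.05% of all 27025 genes in the promoter table. The letters TTTGAA were in 16.1% of members, 13.9% of tested genes and 20.2% of all genes, so the direction of the difference turned with the background. They were in 2 of the 12 members called lower that have a window, Kpna2 and Ipo4. Among tested members not called they were in 3 of 18, and the share was 16.7% in both sets. A window held CCAAT in 54.8% of members, 42.9% of tested genes and 41.1% of all genes. Among members called lower the share was 33.3% (4 of 12), and among tested members not called it was 66.7% (12 of 18). The GC box GGGCGG was in 74.2% of members, 68.6% of tested genes and 38.2% of all genes. The E-box CACGTG was in 19.4% of members, 11.5% of tested genes and 8.09% of all genes. The ETS letters CCGGAAGT were in 9.68% of members, near the 8.51% of tested genes, and in 4.31% of all genes. Of the pair of E2F letter strings searched, TTTCCCGC was in 1 member, Nup210 (2.25% of tested genes), and TTTGGCGC in 0 of 31 members (1.13% of tested genes). A match describes the letters in the window and was not tested as a binding site.

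Of the 41 members, 40 passed the filter of a mean of at least 10 normalised reads; Nup62cl, a paralog with 1 and 1 reads in shPHF2 cells and 3 in shControl cells, did not. Of those 40, 16 fell in shPHF2 cells and 0 rose (limma on log2(value + 1), adjusted p under 0.05). Over all 14148 genes tested, 7.11% were called lower and 7.22% higher. Among genes with a mean of at least 500 normalised reads, a level that 38 members reached, 10.5% were called lower and 7.65% higher. The 16 were Nup85, Nup205, Nup50, Nup107, Nup133, Nup155, Nup160, Nup43, Nup153, Nup188, Kpna2, Ipo5, Xpo4, Xpo7, Xpo5 and Ipo4. Their mean in shPHF2 cells lay between 46.1% and 63.3% of the shControl value, and that of 4 of them, Nup85, Kpna2, Nup205 and Ipo5, lay below 50% of it.

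Both shPHF2 libraries lay below the shControl library for 37 of the 40 members tested, against 41.8% of all genes tested and 46.3% of the genes that reached 500 normalised reads on average. The members outside that count were Kpna1, Xpo6 and Ipo13. The median log2 fold change was −0.67 over the members and −0.01 over all genes. In replicate 1 the members' median was −0.59, and in replicate 2 it was −0.70. The shControl arm has 1 library, so its own error cannot be estimated. The error behind the p-values comes from the spread between the shPHF2 libraries, pooled with a trend over all genes (1 residual and 6.94 prior degrees of freedom). The p-values assume that shControl varies like the shPHF2 libraries.

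**Figure D1:**
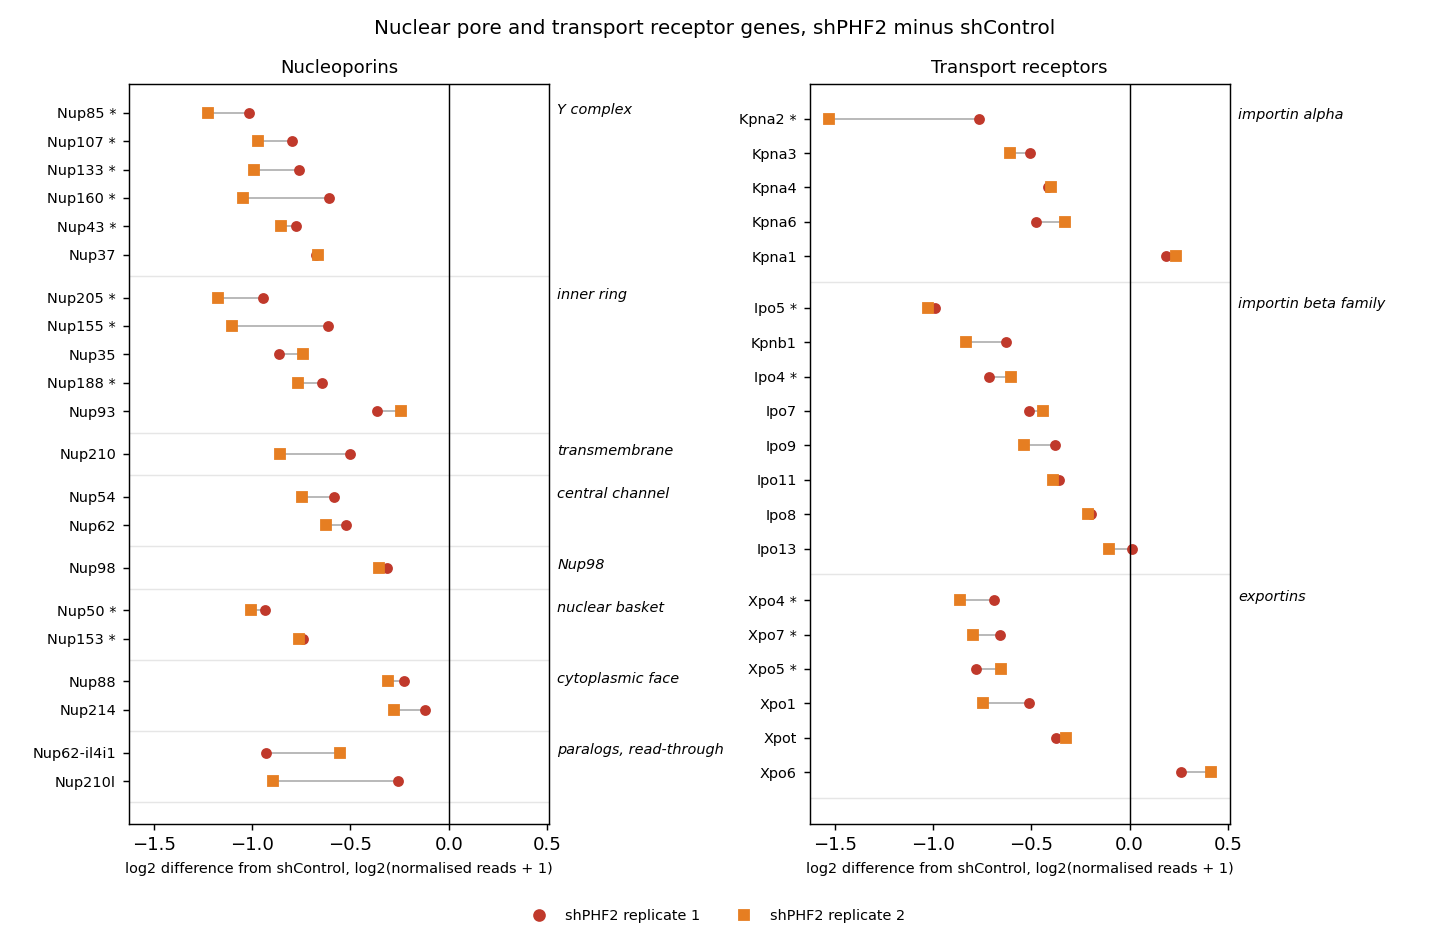
Log2 fold change, shPHF2 against shControl, of the 40 members tested, in rows grouped by role; each point is 1 of the 2 shPHF2 replicates minus the shControl library, and an asterisk marks a member that passed the test. All but Kpna1, Xpo6 and Ipo13 have both replicates below 0, and Kpna2 has the widest gap between replicates among the called members, at −0.77 and −1.53.

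Of the Y complex, which forms the outer rings of the pore, 6 members were grouped here by name. Among these 5 fell, with a median log2 fold change of −0.85. Outside the 6, the Y subunit Seh1l fell (−1.02), whereas Sec13 (−0.07) and Nup98, whose precursor also gives the Y subunit Nup96 (−0.34), were not called. Nup85, a subunit of the Y, had 1856 and 1609.5 normalised reads in shPHF2 cells, against 3756 in shControl cells. The shPHF2 mean was 1733 ± 174 (SD, n = 2). Its fitted log2 fold change was −1.12 ± 0.19 SE with an adjusted p of 0.012. Nup85 lies at chr11:115564434-115583985 on the plus strand (GRCm38, GENCODE M21). Nup107, the subunit that links the stem to Nup133 and whose promoter window holds GCGCATGC, had 1386 and 1229.8 normalised reads in shPHF2 cells and 2409 in shControl cells (log2 fold change −0.88, adjusted p = 0.023). Nup133, at the foot of the Y and needed in mouse embryos for neural differentiation, had 1978 and 1689 in shPHF2 cells and 3352 in shControl cells (−0.87, adjusted p = 0.023).

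Among the other Y subunits, Nup160, an arm subunit, fell and had 1521 and 1121 normalised reads in shPHF2 cells and 2317 in shControl cells, and its replicates differed, at −0.61 and −1.05 on the log2 scale. Its adjusted p was 0.049, and 0.0952 after a correction for GC content and length; over all alternatives it ran from 0.0378 to 0.227. Nup43, a small beta-propeller subunit, had 790.3 and 751 in shPHF2 cells and 1356 in shControl cells (−0.81, adjusted p = 0.038). Nup37, which binds Nup160, was the Y member that did not pass, with 454 and 458 in shPHF2 cells and 726 in shControl cells (−0.67, adjusted p = 0.10). The summed level of the 6 was 57.4% and 49.3% of shControl in replicates 1 and 2.

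In the inner ring, the scaffold that holds the channel nucleoporins, 3 of 5 members fell. Nup205, one of its large scaffold proteins, had 5406 and 4608 normalised reads in shPHF2 cells and 10388 in shControl cells (log2 fold change −1.06 ± 0.19 SE, adjusted p = 0.014). The shPHF2 mean was 5007 ± 564 (SD, n = 2). Nup205 lies at chr6:35177421-35247596 on the plus strand. Its paralog Nup188 had 2260.2 and 2079 in shPHF2 cells and 3533 in shControl cells (−0.70, adjusted p = 0.037). Nup155, which ties the ring to the envelope, had 4426 and 3160.0 in shPHF2 cells and 6774 in shControl cells (−0.86, adjusted p = 0.043). Nup155 was the called inner ring member whose replicates lay farthest apart, at −0.61 and −1.10.

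The remaining inner ring members did not pass the test. Nup35, a membrane-bending linker, had 518 and 563 normalised reads in shPHF2 cells and 943 in shControl cells (−0.80, adjusted p = 0.055). Nup93, the hub that joins Nup205 or Nup188 to the channel, had 2061 and 2240.1 in shPHF2 cells and 2651 in shControl cells (−0.30, adjusted p = 0.29). Both shPHF2 libraries lay below shControl for Nup93 as well. The summed level of the 5 was 60.4% and 52.1% of shControl.

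Both nuclear basket members fell. Nup50, a mobile basket protein that helps importins release cargo, had 3704 and 3516 normalised reads in shPHF2 cells and 7068 in shControl cells (−0.97 ± 0.17 SE, adjusted p = 0.014). Nup153, which recruits Nup50 and in neural progenitors is known to bind chromatin together with Sox2, had 5999 and 5902 in shPHF2 cells and 10019.6 in shControl cells (−0.75, adjusted p = 0.030). Tpr, the basket filament protein, was not a member by the rule and was not called.

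Nucleoporins of the channel and of the cytoplasmic face were not called. Nup62, the central channel protein, had 2802 and 2609 normalised reads in shPHF2 cells and 4021 in shControl cells (−0.57, adjusted p = 0.066), and its partner Nup54 had 985 and 879 against 1475 (−0.66, adjusted p = 0.067). Nup210, a membrane-spanning nucleoporin needed for neural differentiation of mouse cells, had 8712 and 6794 in shPHF2 cells and 12317 in shControl cells (−0.68, adjusted p = 0.069). Nup98, whose precursor is cut into the channel protein Nup98 and the Y subunit Nup96, had 3101 and 3017 in shPHF2 cells and 3859 in shControl cells (−0.34, adjusted p = 0.23). Nup214 and Nup88, which form a complex on the cytoplasmic side, had log2 fold changes of −0.20 and −0.27, and their summed level was 88.0% and 81.5% of shControl. Nup62-il4i1, a read-through of Nup62 into its neighbour, had 10.0 and 13.3 normalised reads in shPHF2 cells and 19.9 in shControl cells, and Nup62 overlaps it, so their reads cannot be separated. Nup210l, a paralog of Nup210, had 222 and 142 against 265.

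**Figure D2:**
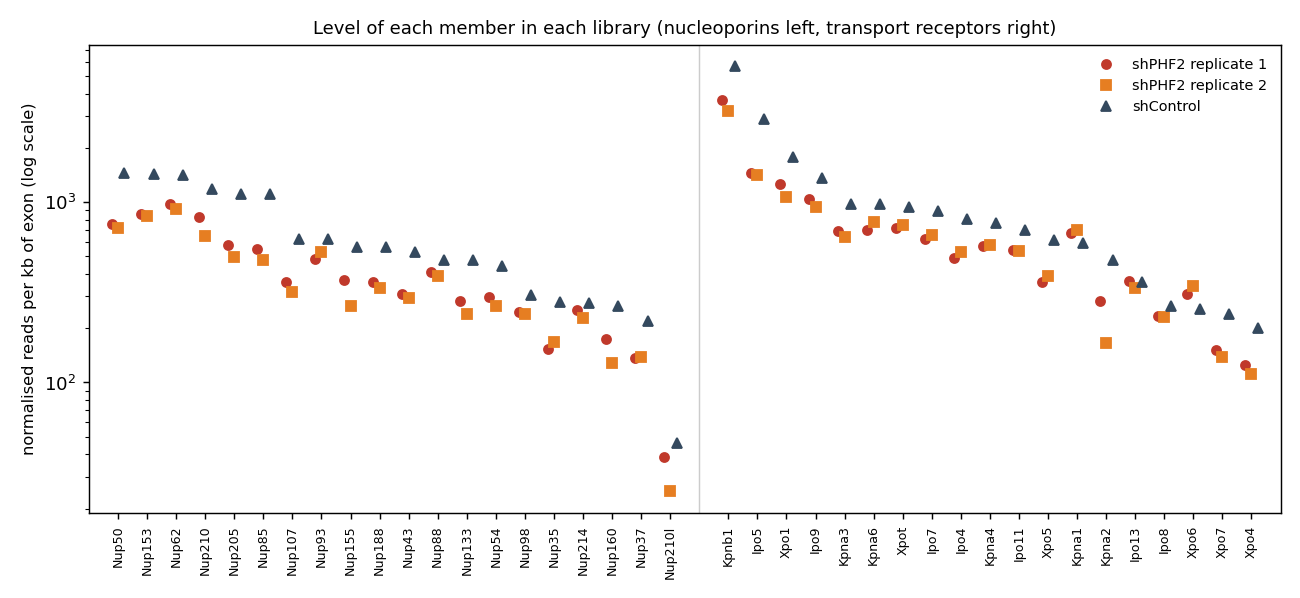
Normalised reads per kilobase of exon, on a log axis, of the tested members that have an exon length, in shPHF2 replicate 1, shPHF2 replicate 2 and shControl (1 point a library). Kpnb1 is the highest member in each library, and Kpna1 and Xpo6 are the members with both shPHF2 points above the shControl point.

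Transport receptors fell in 6 of 19, spread over the importin alpha, importin beta and exportin groups. In levels divided by exon length, Kpnb1 was the highest receptor, with 3691 and 3206 normalised reads per kilobase in shPHF2 cells and 5698 in shControl cells. Kpnb1 had a log2 fold change of −0.73 with an adjusted p of 0.071. By reads it had 24325 and 21130.3 in shPHF2 cells and 37552 in shControl cells. Ipo5 was next in shControl cells among the members, at 1448 and 1411 per kilobase in shPHF2 cells and 2875 in shControl cells.

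Of the 8 importin beta family members, Ipo5 and Ipo4 fell. Ipo5, known to import ribosomal proteins and core histones, had 8689.6 and 8468 normalised reads in shPHF2 cells and 17252 in shControl cells (−1.01 ± 0.18 SE, adjusted p = 0.015). The shPHF2 mean was 8579 ± 156 (SD, n = 2). Ipo5 lies at chr14:120911224-120947999 on the plus strand. Ipo4, which carries histone H3 and H4, had 2299 and 2484 in shPHF2 cells and 3777 in shControl cells (−0.66, adjusted p = 0.044). Ipo7, Ipo9, Ipo11 and Ipo8 had log2 fold changes between −0.48 and −0.20 and were not called. Ipo13, a receptor that both imports and exports, had 1531.5 and 1412 in shPHF2 cells and 1517 in shControl cells, so the libraries overlapped (−0.05, adjusted p = 0.90). The share of Ipo5 in the summed normalised reads per kilobase of the family was 17.1% and 17.98% in shPHF2 cells and 22.2% in shControl cells.

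Of the 5 importin alpha members, 1 passed the test. Kpna2 is high in pluripotent and dividing cells. Its promoter window, like that of Ipo4, holds the CHR letters TTTGAA, which were in 16.7% of members called lower and 16.7% of tested members not called. Kpna2 fell, with 811 and 477 normalised reads in shPHF2 cells and 1381 in shControl cells (−1.15 ± 0.32 SE, adjusted p = 0.048). The shPHF2 mean was 644 ± 236 (SD, n = 2). Its replicates differed, at −0.77 and −1.53, and the 396 reads of replicate 2 were the fewest behind any called member. Its adjusted p was 0.0501 with a pseudocount of 5 and 0.0715 after the GC content and length correction; over all alternatives it ran from 0.0240 to 0.234. Kpna3, Kpna4 and Kpna6 had log2 fold changes of −0.56, −0.41 and −0.40 and were not called. Kpna1, the adaptor known to become prominent when mouse embryonic stem cells turn into neurons, had 5739 and 5940.2 in shPHF2 cells and 5045 in shControl cells (log2 fold change 0.21, adjusted p = 0.45). Both shPHF2 libraries lay above the shControl library for Kpna1, the only importin alpha member for which they did.

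Shares within the importin alpha group were computed from normalised reads per kilobase of exon. Kpna2 made up 9.67% and 5.81% of the group in shPHF2 cells and 12.7% in shControl cells. Kpna1 made up 23.2% and 24.5% in shPHF2 cells and 15.7% in shControl cells. Without division by exon length, which was tried after seeing the data, Kpna1 made up 29.7% and 30.4% in shPHF2 cells and 21.01% in shControl cells. On that scale Kpna2 made up 4.19% and 2.44% in shPHF2 cells and 5.75% in shControl cells. The summed level of the 5 genes was 80.5% and 81.5% of shControl. Shares have no test here.

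**Figure D3:**
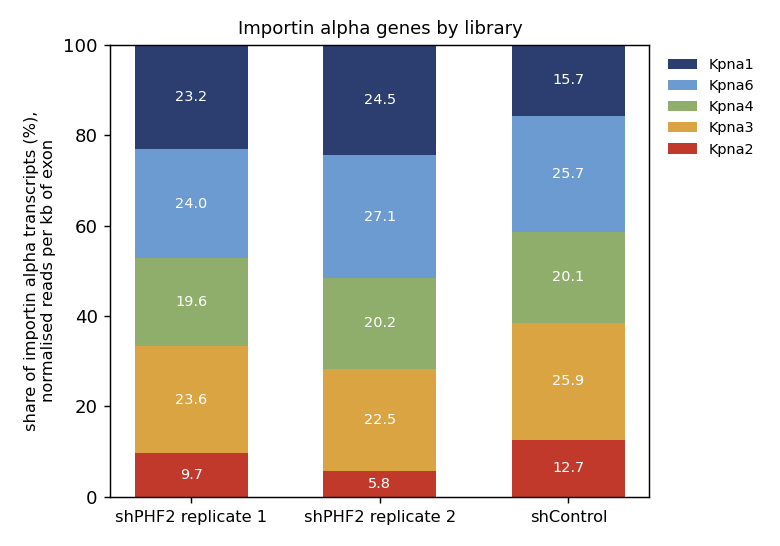
Share of each of the 5 importin alpha genes in the group's normalised reads per kilobase of exon, in shPHF2 replicates 1 and 2 and then shControl. Kpna1 has a share of 23.2% and 24.5% in shPHF2 cells and 15.7% in shControl cells, and Kpna2 has 9.67% and 5.81% against 12.7%.

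Of the 6 exportins, 3 fell. Xpo4, known to export eIF5A and, in mouse cells, to import Sox2, had 1339.8 and 1189 normalised reads in shPHF2 cells and 2163 in shControl cells (−0.78, adjusted p = 0.036). Xpo7, an exportin of broad cargo, had 2879.6 and 2625 in shPHF2 cells and 4553 in shControl cells (−0.73, adjusted p = 0.033). Xpo5, which exports pre-miRNAs, had 2463 and 2687 in shPHF2 cells and 4229 in shControl cells (−0.72, adjusted p = 0.035). Xpo1, the main exportin for leucine-rich signals, had 9009.8 and 7679 in shPHF2 cells and 12855 in shControl cells (−0.63, adjusted p = 0.069). The tRNA exportin Xpot had a log2 fold change of −0.35. Xpo6, which exports actin bound to profilin, had 5207 and 5786 in shPHF2 cells and 4346 in shControl cells (log2 fold change 0.34 ± 0.18 SE, adjusted p = 0.24). Xpo6 made up 10.5% and 12.2% of summed exportin reads per kilobase in shPHF2 cells and 6.36% in shControl cells.

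**Figure D4:**
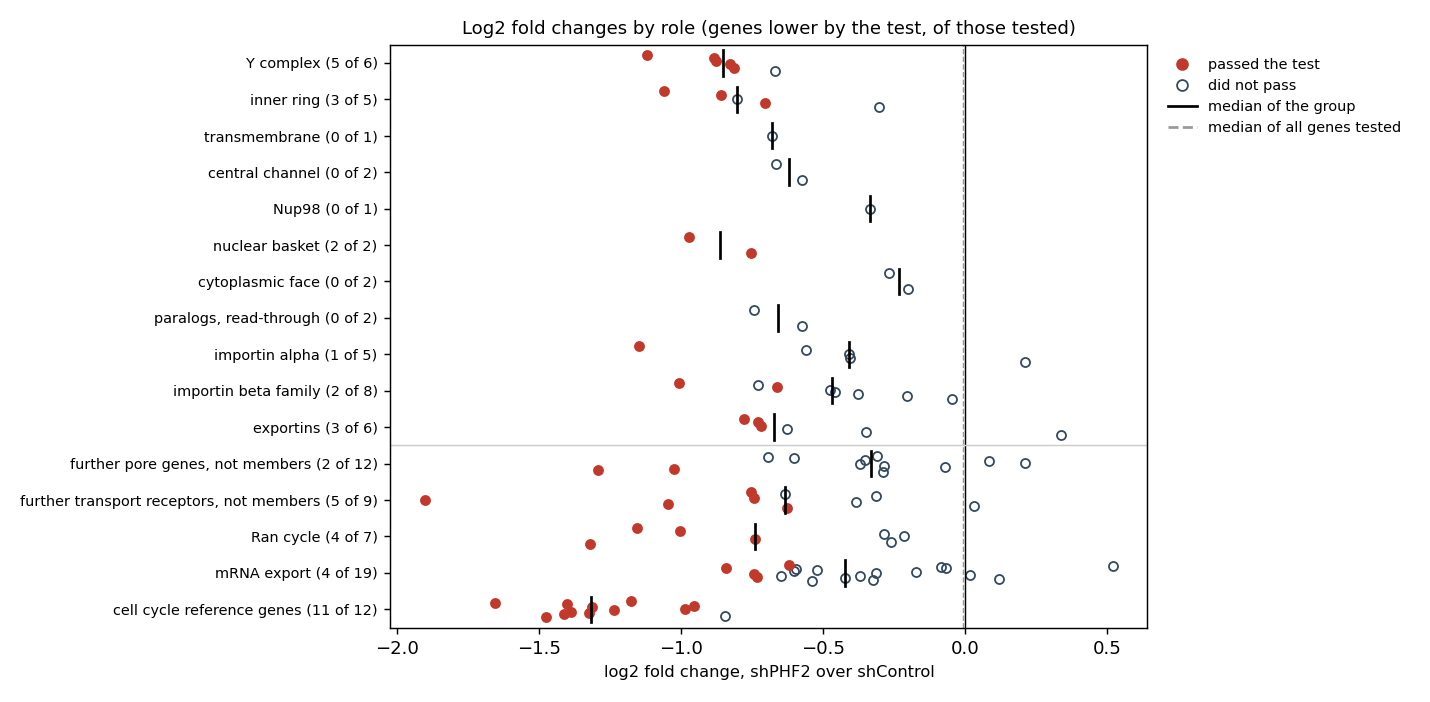
Log2 fold change, shPHF2 over shControl, of each tested gene (points; filled where it passed the test) by role, with the median of each row as a vertical bar and the median of all genes as a dashed line. The medians lie at −0.85 for the Y complex, −0.80 for the inner ring, −0.86 for the nuclear basket and −0.23 for the cytoplasmic face; rows under the grey line are genes outside the member list.

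Pore and receptors were set side by side by their counts and medians. Nucleoporins were called lower in 10 of 21 tested and receptors in 6 of 19. The median log2 fold change was −0.74 over the nucleoporins and −0.48 over the receptors, a difference of −0.26. The nucleoporin median is the value of the read-through Nup62-il4i1, which had 12 and 11 reads in shPHF2 cells and 20 in shControl cells. With a minimum mean of 50, which leaves that row out, the nucleoporin median was −0.728 and the difference −0.252. In replicate 1 the difference was −0.14 and in replicate 2 it was −0.23. Summed levels were 64.4% and 56.9% of shControl for nucleoporins, and 70.6% and 67.5% for receptors. The difference between the groups was not tested, and it is described by these values alone.

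The call was repeated with other tools. edgeR on recovered reads called 18 members lower (8.06% of all genes lower), adding Nup35 and Nup54. DESeq2 called 19 (7.65%), adding Kpnb1, Nup210 and Xpo1, and the authors' deposited table also called 19 (7.96%). All 16 members were among those called by each of these. Nup188, Ipo4, Xpo4 and Xpo7 share exon bases with a gene on the same strand, and Nup133 and Nup188 with a gene on the other strand, so their reads are uncertain. With quantile normalisation, without the filter on low values, or without the mean-variance trend, limma called 0 members and 0 genes in all.

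Further genes of the pathway were counted from lists taken from textbook knowledge. These were chosen with earlier results of these data known, so their counts are descriptions. The lists held 42 tested genes, of which 14 fell (33.3%) and 0 rose, with a median log2 fold change of −0.47. Over all 14148 genes tested, 7.11% were called lower, and 10.5% of those with a mean of at least 500 normalised reads. Among 12 further pore genes 2 fell. Tmem48 (Ndc1), a membrane anchor of the pore, had 1239.7 and 1217 normalised reads in shPHF2 cells and 3004 in shControl cells (−1.29, adjusted p = 0.0076), and Seh1l, a Y subunit, fell too (−1.02). Sec13, another Y subunit on that list, had 5078 and 5354 in shPHF2 cells and 5470.3 in shControl cells (−0.07, adjusted p = 0.82). Of 9 further receptors 5 fell. Nxt2, a cofactor of mRNA export, had 459 and 491 in shPHF2 cells and 1774 in shControl cells (−1.90, adjusted p = 0.0054). Tnpo1, which imports hnRNP proteins, had 7466 and 7322 in shPHF2 cells and 15262 in shControl cells. Cse1l, which returns importin alpha to the cytoplasm, had 5227 and 5176 against 8773 (−0.75).

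The Ran cycle, which powers these receptors, fell in 4 of 7 genes. Ran itself had 4784 and 5395 normalised reads in shPHF2 cells and 11309.5 in shControl cells (−1.15, adjusted p = 0.0097). Rcc1, the exchange factor that loads Ran with GTP, had 1564 and 1566 in shPHF2 cells and 3907 in shControl cells (−1.32, adjusted p = 0.0068). Ranbp1 and Rangap1 fell by 1.00 and 0.74 on the log2 scale. Of 19 mRNA export genes 4 fell, with Ddx39 at −0.84, Nxt1 at −0.74 and Thoc2 at −0.73. The pathway lists overlap, and Nxt1, also among the further receptors, counts once in the 14 of 42 that fell. In 12 cell cycle reference genes, a list also chosen with earlier results of these data known, 11 fell, with a median log2 fold change of −1.32. The share called lower over all genes tested was 7.11%. Pcna among them had 2869 and 2792 normalised reads in shPHF2 cells and 7532 in shControl cells. The astrocyte marker S100b rose in the same libraries. Whether cell cycle state or cell mix has a part in the members' lower levels was not tested.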

How the data were processed

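Mouse NSC RNA was sequenced with a stranded total RNA kit after ribosomal RNA removal, per the labels' protocols; HISAT2, HTSeq, DESeq2 and mm10 are named in the submitters' processing notes, and the sources used here give no versions, annotation or counting strand. The deposited signal values are reads that the authors divided by DESeq2 size factors (1.20, 0.829 and 1.00 in shPHF2 replicates 1 and 2 and shControl), per the file headers; 100% of values gave whole reads within 0.001. The deposited table also holds the authors' log2 fold changes, Wald score and p-value. The 4 rows naming no gene were left out: 38.7% to 44.0% of reads had no feature, 15.9% to 20.5% low quality, 1.18% to 1.78% no alignment and 0.430% to 0.461% were ambiguous.

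limma 3.58.1 in R 4.3.3 was fitted to log2(value + 1) (trend, 1 residual and 6.94 prior degrees of freedom) over 14148 genes with a mean of at least 10. Fold changes on this scale understate low genes. edgeR 4.0.16, run on the recovered reads, called 1007 genes higher and 1140 lower, and DESeq2 1.42.0 was another alternative. Counting noise alone did not account for the gap between the shPHF2 libraries (chi-square divided by its degrees of freedom 58.9). Positions and exon lengths are from GENCODE M21 (GRCm38), and 40 of 41 members were placed; 12 share exon bases with another gene, so their reads are uncertain. Members and lists were chosen with earlier results of these data known. Named genes are the members, plus pathway genes from the lists. Code was tested on simulated data. Protein features were not computed here.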

Additional observations from a re-analysis of the deposited data

How the results depend on the processing

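All genes called numbered 1021 higher and 1006 lower. With the GC content and length correction they were 728 and 1125. With quantile normalisation, with no filter on low values and without the trend, counts of all genes called higher and lower, members, nucleoporins, receptors and further pathway genes called lower were each 0; at an unadjusted p under 0.05 there were 3700, 3893 and 3300 genes in all and 24, 26 and 17 members, and the smallest adjusted p of a member was 0.0987, 0.143 and 0.161. edgeR called 18 members and DESeq2 19, and 14 of the 16 members called were called in 7 of 10 settings, the exceptions being Nup160 and Kpna2. Leaving out each shPHF2 replicate gave medians of −0.765 to −0.644 for nucleoporins (−0.74 with both) and −0.534 to −0.508 for receptors (−0.48 with both), and a difference of −0.23 to −0.136 (−0.26 with both). Quantile normalisation gave −0.349 for receptors and −0.397 for the difference. Ipo13 (−0.05) changed sign, to 0.006 with quantile normalisation and 0.014 without replicate 2, and was −0.104 without replicate 1. The cause was not tested. Counts of calls could not be fitted with a replicate left out, since no residual degree of freedom remains. No paired analysis was possible because shControl has 1 library, with no replicate number in its label. Each called member had at least 396 reads in every library; the single control library limits the precision.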

Other observations

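Pairs of paralogs outside the member list are given side by side, and the difference between paralogs was not tested. Tnpo1 had 7466 and 7322 normalised reads in shPHF2 cells and 15262 in shControl cells and fell, whereas its paralog Tnpo2 had 4922 and 4832 in shPHF2 cells and 4774 in shControl cells and was not called. Nxt2 had 459 and 491 in shPHF2 cells and 1774 in shControl cells, and Nxt1 had 1035 and 1133 in shPHF2 cells and 1815 in shControl cells; both fell. Alyref had 3276 and 3183 in shPHF2 cells and 4964 in shControl cells and fell, and Alyref2 had 203 and 289 in shPHF2 cells and 168 in shControl cells and was not called.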
